A study of Homo sapiens with 4 samples.

Results

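The 7 genes described are epithelial acute phase and antimicrobial genes: SAA1, SAA2, LCN2, SLPI, PI3, WFDC2 and C15orf48. They were chosen by name, as a list of related genes, and make up 7 of the 18131 genes listed in the 4 libraries; all 7 were listed in every library. The cells were HCC1143, an established human cell line from a triple-negative breast carcinoma. The groups were cells kept in 1 nM paclitaxel for 24 h, cells kept in DMSO for 24 h, cells kept in 1 nM paclitaxel for 72 h and cells kept in DMSO for 72 h, each after an attachment period in 6-well plates. Paclitaxel stabilises microtubules, and DMSO was the solvent control. Each group was 1 10x Chromium library of polyadenylated RNA, counted as unique molecular identifiers (UMIs), so no test across samples exists and no difference has a replicate check.

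The acute phase response is a change in secreted proteins that follows infection or injury. It is best known from the liver, where interleukin 6, interleukin 1 and tumour necrosis factor act through STAT3, C/EBP and NF-kB. Epithelia of the breast, airway and gut make several of the same proteins locally, together with small protease inhibitors that limit damage from neutrophil enzymes and act on bacteria. SAA1 and SAA2 encode serum amyloid A, an acute phase apolipoprotein of high density lipoprotein. LCN2 encodes lipocalin 2, which binds bacterial siderophores and so withholds iron. SLPI, PI3 and WFDC2 encode secreted proteins with whey acidic protein (WAP) domains: SLPI inhibits neutrophil elastase and cathepsin G, PI3 (elafin) inhibits neutrophil elastase and proteinase 3, and WFDC2 (HE4) is a marker of epithelial tumours. C15orf48 encodes a small mitochondrial protein induced in inflammation that can take the place of NDUFA4 in cytochrome c oxidase.

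Kept cells numbered 776 in the paclitaxel 24 h library, 1101 in DMSO 24 h, 520 in paclitaxel 72 h and 783 in DMSO 72 h, and median UMIs per cell lay between 54864 and 59670. All 8 epithelial markers examined were listed in every library and summed to between 2306 and 5234 CPM (UMIs scaled to a library total of 1000000). At least 1.5-fold relative to all genes, 2 of the 8 were higher in paclitaxel at 24 h and 5 at 72 h. Of all genes tested, 6.3% were higher at 24 h and 11.1% at 72 h. Of 8 leukocyte markers, which matter here because neutrophils and macrophages also make several of these proteins, 3 were listed in 3 libraries and 5 in paclitaxel 72 h. TYROBP, CD3D and MPO were listed in none, PTPRC reached 0.287 CPM in paclitaxel 72 h alone, and the summed leukocyte markers came to 9.22 CPM in paclitaxel 24 h, 7.97 CPM in DMSO 24 h, 26.3 CPM in paclitaxel 72 h and 8.13 CPM in DMSO 72 h, most of it CD68 (19.6 CPM in paclitaxel 72 h). The part of these markers in the results below was not tested, nor was that of the median share of ribosomal protein gene UMIs per cell, which was 33.2% in paclitaxel 24 h, 27.1% in DMSO 24 h, 27.5% in paclitaxel 72 h and 40.6% in DMSO 72 h. From 2 to 3 of 9 stromal markers were listed, at 10.6 to 15.6 CPM in sum. Libraries shared 7 cell barcodes in all.

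The genes lay on 4 chromosomes (GRCh38, GENCODE 29). SAA1 (chromosome 11, 18266174 to 18269977, plus strand) and SAA2 (18239223 to 18248643, minus strand) were 17.5 kb apart. SLPI (chromosome 20, 45252239 to 45254564, minus strand) was 75.7 kb from PI3 (45174876 to 45176544, plus strand) and 215 kb from WFDC2 (45469706 to 45481532, plus strand). LCN2 lay on chromosome 9 (128149071 to 128153455, plus strand) and C15orf48 on chromosome 15 (45430529 to 45448761, plus strand).

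RefSeq promoters (GRCh38.p14) matched LCN2, WFDC2 and C15orf48, the last under the symbol COXFA4L3, and are printed because these genes were among those higher after paclitaxel at both times. No entry matched SAA1, SAA2, SLPI or PI3. The 250 bases before each RefSeq start are given below on the plus strand, 5′ to 3′, with matches to an NF-kB-like motif on either strand in capitals; they cover chr9:128149203-128149452, chr20:45469503-45469752 and chr15:45430360-45430609.
LCN2 promoter: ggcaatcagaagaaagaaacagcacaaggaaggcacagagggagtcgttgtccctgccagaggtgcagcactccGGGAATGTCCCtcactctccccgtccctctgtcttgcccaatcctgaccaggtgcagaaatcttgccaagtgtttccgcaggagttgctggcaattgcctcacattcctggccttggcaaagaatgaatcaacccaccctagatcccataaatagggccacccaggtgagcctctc
WFDC2 promoter: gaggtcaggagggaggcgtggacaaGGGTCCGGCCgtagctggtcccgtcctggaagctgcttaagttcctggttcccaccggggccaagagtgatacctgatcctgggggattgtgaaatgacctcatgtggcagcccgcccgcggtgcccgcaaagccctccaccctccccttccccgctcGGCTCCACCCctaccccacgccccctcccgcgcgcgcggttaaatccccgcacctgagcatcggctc
C15orf48 promoter: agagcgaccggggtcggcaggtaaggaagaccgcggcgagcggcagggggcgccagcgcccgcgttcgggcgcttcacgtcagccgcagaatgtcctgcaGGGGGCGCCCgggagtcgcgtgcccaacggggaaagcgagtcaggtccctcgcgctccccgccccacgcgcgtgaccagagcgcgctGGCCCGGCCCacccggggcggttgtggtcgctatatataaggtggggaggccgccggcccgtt
The NF-kB-like motif was GGGNNNNNCC (GGNNNNNCCC on the other strand), and 54.4% of 35116 RefSeq promoters of the same length held it. In LCN2 the letters GGGAATGTCC lay 176 to 167 bases before the start and overlapped the other-strand match GGAATGTCCC by all but 1 base. WFDC2 held GGGTCCGGCC from -225 to -216 and GGCTCCACCC from -67 to -58. C15orf48 held GGGGGCGCCC, a match on both strands, from -150 to -141 and GGCCCGGCCC from -63 to -54. A C/EBP-like motif, TTNNGNAA or TTNCNNAA on the other strand, was found at -143 to -136 in LCN2 and at -138 to -131 in WFDC2, and in 33.2% of all promoters. A STAT-like motif, TTCNNNGAA on either strand and in 6.57% of all promoters, had no match in these 3 windows. The same held for an interferon-response motif, GAAANNGAAA or TTTCNNTTTC, found in 3.02% of promoters. These are letter matches only.

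The 7 genes together took 604 CPM in paclitaxel 24 h, against 303 CPM in DMSO 24 h, and 1211 CPM in paclitaxel 72 h, against 473 CPM in DMSO 72 h. The paclitaxel library had the higher sum at both times, and each gene by itself had the higher level in the paclitaxel library at both times. Ratios of 2 libraries are given below as log2 of the CPM ratio minus the median of that value over all genes averaging at least 10 CPM in the pair, and are called relative log2 ratios. That median was -0.14 for paclitaxel over DMSO at 24 h, 0.28 at 72 h, -0.29 for DMSO 72 h over DMSO 24 h, and 0.13 for paclitaxel 72 h over paclitaxel 24 h. Ranges in parentheses are 95% intervals; these, and all others here, cover counting error only. A gene is said to have risen or fallen when its mean reached 10 CPM, with a relative ratio of at least 1.5-fold and an interval that excluded 0.

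**Figure D1:**
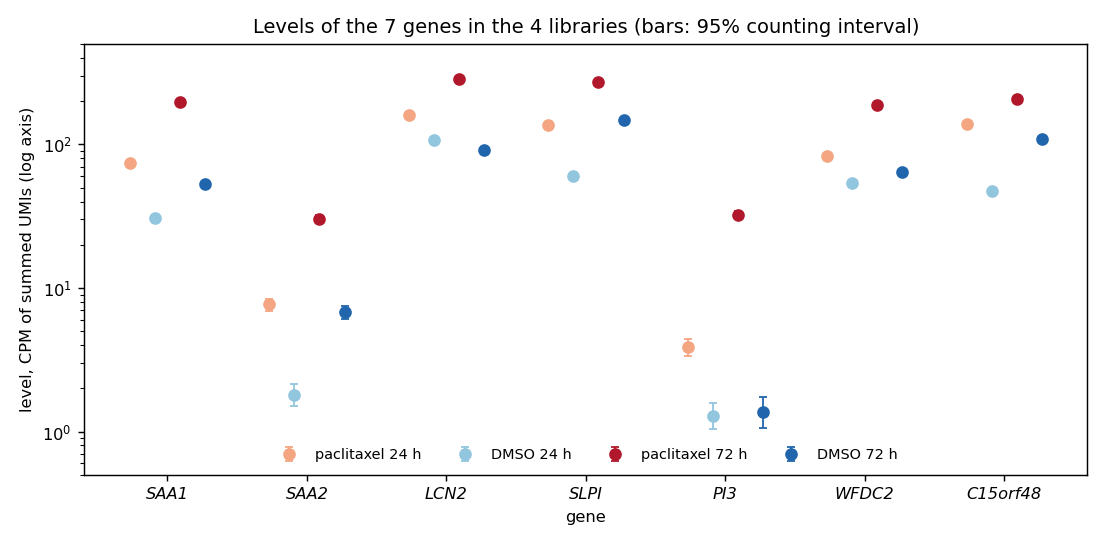
Level of each gene in each library, in CPM of summed UMIs on a log axis; points are libraries (1 per group) and bars are exact Poisson 95% intervals, often smaller than the point. For every gene the paclitaxel 72 h library is the highest of the 4, for example 286 CPM for LCN2 and 32.4 CPM for PI3.

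At 24 h, SAA1, LCN2, SLPI, WFDC2 and C15orf48, the 5 genes whose mean reached 10 CPM, all rose in paclitaxel. Among all 8096 genes tested in that pair, 6.3% rose and 1.26% fell. C15orf48 showed the largest relative ratio of the 5 at 1.68 (1.62 to 1.74), placing 25th of 8096, and LCN2 the smallest at 0.71 (0.67 to 0.76). At 72 h all 7 genes rose, among 8306 genes of which 11.1% rose and 7.93% fell. SAA2 and PI3 passed the minimum at 72 h only through the paclitaxel library, so they had to differ. The other 5 were above 10 CPM in both libraries. PI3 then showed the largest relative ratio, 4.29 (3.94 to 4.67), 3rd of all genes, and SLPI the smallest, 0.60 (0.56 to 0.65). The median over the 7 genes was 1.40 at 24 h, SAA2 and PI3 with means under 10 CPM included, and 1.37 at 72 h. Over the 5 genes whose mean reached 10 CPM at 24 h it was 1.32. The median of all genes that reached 10 CPM is 0 by construction.

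Time in culture was a separate axis. Between the DMSO libraries SAA1, SLPI and C15orf48 rose at 72 h relative to 24 h, whereas LCN2 and WFDC2 did not, among 13% of 8077 genes that rose and 9.89% that fell. Between the paclitaxel libraries 6 of the 7 rose, SAA2 and PI3 again past the minimum through paclitaxel 72 h alone, and C15orf48 did not, among 7.95% of 8335 genes that rose and 4.93% that fell. The 4 comparisons share libraries in pairs and are therefore not independent of one another. Without subtraction of the median, the shares of all genes that rose and fell were 4% and 3.62% for paclitaxel over DMSO at 24 h and 25.2% and 2.13% at 72 h. They were 6.43% and 25.1% for DMSO 72 h over DMSO 24 h, and 12.2% and 2.65% for paclitaxel 72 h over paclitaxel 24 h.

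**Figure D2:**
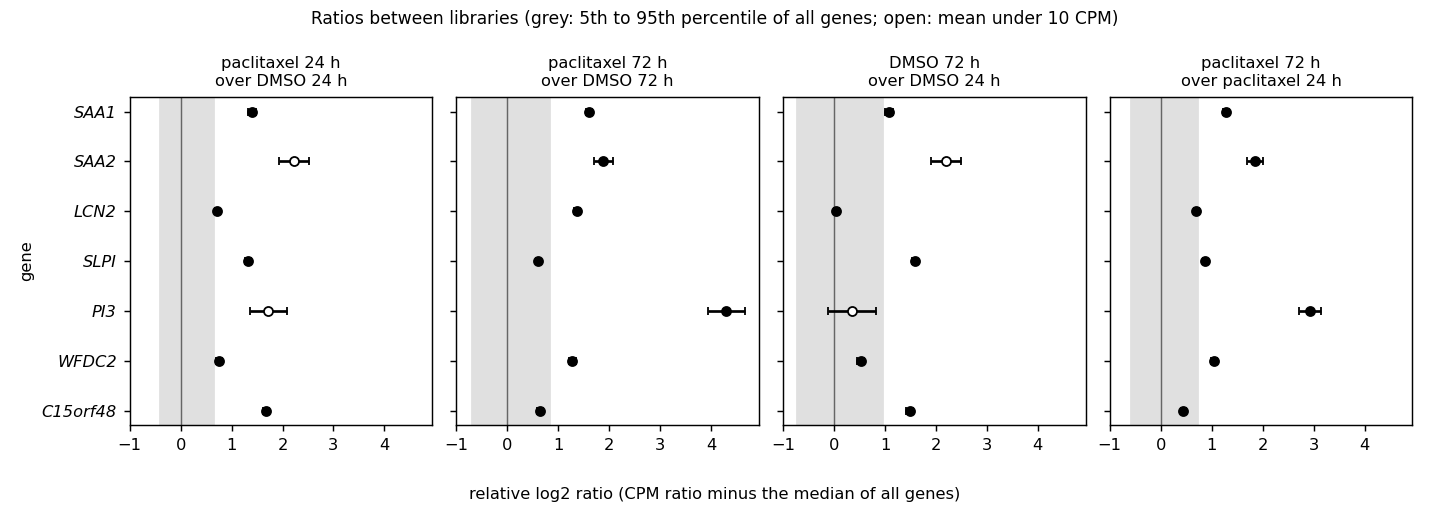
Relative log2 ratio of each gene in the 4 comparisons, with 95% counting intervals; the grey band spans the 5th to 95th percentile of all genes, and open points had a mean under 10 CPM. For paclitaxel over DMSO at 24 h every point lies above the band, and at 72 h SLPI (0.60) and C15orf48 (0.64) lie inside it.

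SAA1 had 73.6 CPM in paclitaxel 24 h and 30.7 CPM in DMSO 24 h, and 196 CPM in paclitaxel 72 h and 53.1 CPM in DMSO 72 h. The order was thus DMSO 24 h, DMSO 72 h, paclitaxel 24 h and paclitaxel 72 h, with no interval overlapping the next. Its relative log2 ratio for paclitaxel over DMSO was 1.40 (1.32 to 1.47) at 24 h and 1.60 (1.54 to 1.67) at 72 h. With time it rose by 1.08 (0.99 to 1.16) in DMSO and by 1.28 (1.23 to 1.34) in paclitaxel.

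SAA2 was the scarcer of the serum amyloid A genes, with 7.68 CPM in paclitaxel 24 h, 1.80 CPM in DMSO 24 h, 30.3 CPM in paclitaxel 72 h and 6.76 CPM in DMSO 72 h. The order was the same as for SAA1, but the intervals of paclitaxel 24 h (6.96 to 8.44 CPM) and DMSO 72 h (6.06 to 7.53 CPM) overlapped. At 72 h it rose in paclitaxel by 1.88 (1.70 to 2.06). At 24 h its relative ratio was 2.23 (1.94 to 2.52), from a mean too low for a call. SAA2 made up 9.44% (8.61 to 10.3) of the summed SAA1 and SAA2 UMIs in paclitaxel 24 h, 5.55% (4.66 to 6.56) in DMSO 24 h, 13.4% (12.7 to 14.2) in paclitaxel 72 h and 11.3% (10.2 to 12.5) in DMSO 72 h. SAA2's share was lowest in DMSO 24 h and highest in paclitaxel 72 h.

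The split between SAA1 and SAA2 is uncertain because their transcripts are near copies. The GENCODE transcripts SAA1-201 (615 bases) and SAA2-201 (563 bases) were identical at 95.1% of 533 aligned bases, with an identical run of 186 bases. Over the last 300 bases, nearer to the poly(A) tail from which the RNA was captured, identity was 91.1%, and over the last 100 bases it was 74.2%.

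LCN2 had 161 CPM in paclitaxel 24 h and 108 CPM in DMSO 24 h, and 286 CPM in paclitaxel 72 h and 91.4 CPM in DMSO 72 h. Paclitaxel 72 h was highest, and of the 7 genes LCN2 was the one whose lowest library was DMSO 72 h. Its rise in paclitaxel was 0.71 (0.67 to 0.76) at 24 h and 1.37 (1.32 to 1.42) at 72 h. Between the DMSO libraries the relative ratio was 0.05 (-0.01 to 0.10) and the ratio before subtraction -0.24, so the sign depended on the scaling. Without subtraction of the median the ratio at 24 h was 0.58, just short of 1.5-fold.

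The WAP domain genes did not follow one pattern. SLPI had 136 CPM in paclitaxel 24 h and 60.0 CPM in DMSO 24 h, and 272 CPM in paclitaxel 72 h and 147 CPM in DMSO 72 h. The DMSO 72 h library was thus above the paclitaxel 24 h library. SLPI rose in paclitaxel by 1.32 (1.27 to 1.37) at 24 h and by 0.60 (0.56 to 0.65) at 72 h, and with time in DMSO by 1.58 (1.53 to 1.64). The rise at 72 h was 1.52-fold after subtraction of the median and so close to the limit for a call. As a mean of CPM per cell without the 5% of cells highest for SLPI, it was 0.33, which ends the call, and against the median of genes averaging 50 CPM or more it was 0.56, which also ends it.

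WFDC2 had 83.3 CPM in paclitaxel 24 h and 54.2 CPM in DMSO 24 h, and 188 CPM in paclitaxel 72 h and 63.8 CPM in DMSO 72 h. The DMSO libraries were close together and both were below the paclitaxel libraries. It rose in paclitaxel by 0.76 (0.70 to 0.82) at 24 h and by 1.28 (1.22 to 1.34) at 72 h. Between DMSO 72 h and DMSO 24 h its relative ratio was 0.52 (0.45 to 0.59), under 1.5-fold.

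PI3 was scarce in 3 libraries, with 3.87 CPM in paclitaxel 24 h, 1.29 CPM in DMSO 24 h and 1.36 CPM in DMSO 72 h, and stood at 32.4 CPM in paclitaxel 72 h. The DMSO libraries did not differ beyond their intervals. Its rise in paclitaxel at 72 h was 4.29 (3.94 to 4.67) and its rise in paclitaxel with time was 2.93 (2.72 to 3.15), both past the minimum through paclitaxel 72 h alone. At 24 h the relative ratio was 1.72 (1.37 to 2.09), from a mean too low for a call.

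Few cells carried most of the PI3 molecules in paclitaxel 72 h. Of 1129 UMIs in 145 cells, 1 cell held 469 (41.5%) and the 5 highest cells held 768 (68.0%). The highest cell had 121966 UMIs and 7017 detected genes, was not called a doublet, and held 235 UMIs of SLPI, 29 of LCN2, 3 of SAA1 and none of SAA2, WFDC2 or C15orf48. Without the 5 highest cells of each library, PI3 had 10.5 CPM in paclitaxel 72 h and 0.678 CPM in DMSO 72 h, a relative log2 ratio of 3.67 (3.15 to 4.23). The same removal brought paclitaxel 72 h over paclitaxel 24 h to 1.94 (1.65 to 2.23), and paclitaxel over DMSO at 24 h to 2.03 (1.55 to 2.54). The mean of each of these pairs was then under 10 CPM, so that both calls of PI3 end without those cells.

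C15orf48 had 139 CPM in paclitaxel 24 h and 47.5 CPM in DMSO 24 h, and 206 CPM in paclitaxel 72 h and 109 CPM in DMSO 72 h. It rose in paclitaxel by 1.68 (1.62 to 1.74) at 24 h and by 0.64 (0.59 to 0.69) at 72 h. The value at 72 h was 1.56-fold, close to the limit for a call. With time it rose in DMSO by 1.48 (1.42 to 1.55), and its relative ratio in paclitaxel was 0.44 (0.39 to 0.49), under 1.5-fold. NDUFA4, the subunit whose place it can take, had 302 CPM in paclitaxel 24 h and 362 CPM in DMSO 24 h, and 264 CPM in paclitaxel 72 h and 189 CPM in DMSO 72 h. NDUFA4 fell by 0.66 on the relative log2 scale in DMSO 72 h relative to DMSO 24 h.

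The ratio of paclitaxel to DMSO changed with time in different directions for different genes. The ratio at 72 h minus that at 24 h was 2.57 (2.07 to 3.07) for PI3, 0.65 (0.59 to 0.72) for LCN2, 0.52 (0.43 to 0.61) for WFDC2 and 0.20 (0.10 to 0.30) for SAA1, on the relative log2 scale. It was -1.04 (-1.12 to -0.97) for C15orf48, -0.72 (-0.79 to -0.65) for SLPI and -0.34 (-0.68 to -0.01) for SAA2. Apart from the medians, each difference is also the ratio with time in paclitaxel minus that in DMSO. A high ratio between the DMSO libraries therefore lowers it by construction. The genes with negative differences had the highest DMSO ratios, 1.48 for C15orf48, 1.58 for SLPI and 2.19 for SAA2. The SAA2 ratio came from a mean too low for a call. The differences have counting intervals alone and were not tested across replicates.

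To compare cells at 1 depth, each cell was thinned to the same UMI total, 37.5% to 40.8% of the median cell of a library. Thinning kept 733 cells in paclitaxel 24 h, 1067 in DMSO 24 h, 468 in paclitaxel 72 h and 760 in DMSO 72 h. It left out 43 shallower cells in paclitaxel 24 h, 34 in DMSO 24 h, 52 in paclitaxel 72 h and 23 in DMSO 72 h. All cells came from 1 line, so no cell type that should lack these genes was present, and the share of cells with a UMI from free RNA was not measured. The libraries differed both in how many cells had a UMI and in how many UMIs those cells had.

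SAA1 was found in 54.3% of thinned cells in paclitaxel 24 h and 30.2% in DMSO 24 h, and in 69.0% in paclitaxel 72 h and 50.7% in DMSO 72 h. The share was higher in paclitaxel at both times, as it was in unthinned cells, with 74.6% in paclitaxel 24 h, 47.1% in DMSO 24 h, 78.7% in paclitaxel 72 h and 68.6% in DMSO 72 h. LCN2 was found in 73.7% of thinned cells in paclitaxel 24 h and 63.8% in DMSO 24 h, and in 85.7% in paclitaxel 72 h and 68.2% in DMSO 72 h. Cells with 10 or more LCN2 UMIs made up 8.05% in paclitaxel 24 h, 3.94% in DMSO 24 h, 19.7% in paclitaxel 72 h and 1.58% in DMSO 72 h. As a ratio of paclitaxel to DMSO, the share of cells with many LCN2 UMIs thus differed more than the share with any. In percentage points it differed less at 24 h and slightly more at 72 h.

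SLPI was found in 79.0% of thinned cells in paclitaxel 24 h and 54.6% in DMSO 24 h, and in 87.0% (83.6 to 89.9) in paclitaxel 72 h and 84.9% (82.1 to 87.3) in DMSO 72 h. At 72 h these intervals overlapped; unthinned, the shares were 92.7% in paclitaxel 72 h and 94.0% in DMSO 72 h. Cells with 10 or more SLPI UMIs made up 15.6% in paclitaxel 72 h and 6.18% in DMSO 72 h, so the difference at 72 h lay in cells with many molecules. C15orf48 was found in 61.9% of thinned cells in paclitaxel 24 h, 41.0% in DMSO 24 h, 72.4% in paclitaxel 72 h and 58.0% in DMSO 72 h.

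UMIs of C15orf48 were spread unevenly over cells: the 10% of cells highest for it held 54.3% of its thinned UMIs in paclitaxel 24 h, 58.6% in DMSO 24 h, 56.9% in paclitaxel 72 h and 53.7% in DMSO 72 h. For SLPI the same share was 39.4% in paclitaxel 24 h, 45.9% in DMSO 24 h, 45.3% in paclitaxel 72 h and 36.1% in DMSO 72 h. C15orf48 was thus the more concentrated in each library, with single cells of up to 170 thinned UMIs. WFDC2 was found in 64.7% of thinned cells in paclitaxel 24 h, 44.0% in DMSO 24 h, 75.6% in paclitaxel 72 h and 58.9% in DMSO 72 h.

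The scarce genes were found in fewer cells. SAA2 was found in 13.6% of thinned cells in paclitaxel 24 h, 2.91% in DMSO 24 h, 31.2% in paclitaxel 72 h and 12.1% in DMSO 72 h. PI3 was found in 4.91% (3.46 to 6.73) of thinned cells in paclitaxel 24 h, 1.69% (1.00 to 2.65) in DMSO 24 h, 14.3% (11.3 to 17.8) in paclitaxel 72 h and 1.45% (0.725 to 2.57) in DMSO 72 h. The share of PI3 cells in paclitaxel 72 h was above the other 3 libraries, and its interval did not overlap theirs. Unthinned, it was 9.02% in paclitaxel 24 h, 3.91% in DMSO 24 h, 27.9% in paclitaxel 72 h and 4.09% in DMSO 72 h.

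**Figure D3:**
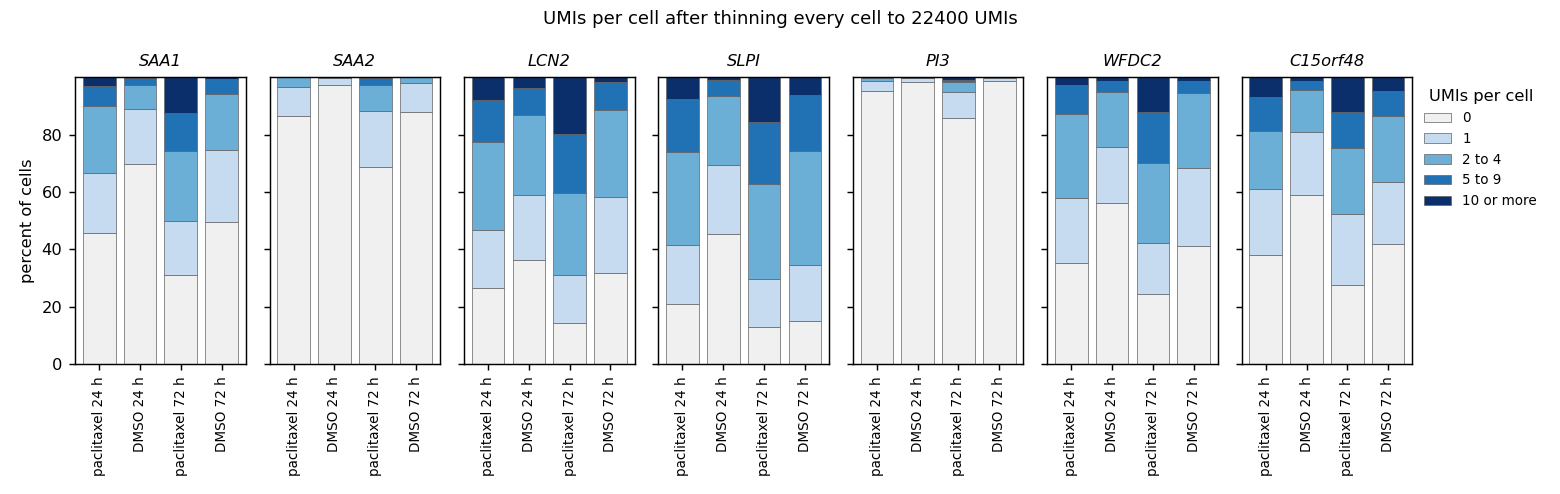
Percent of thinned cells with 0, 1, 2 to 4, 5 to 9 and 10 or more UMIs of each gene, by library. Pale parts are cells with no UMI and the darkest parts cells with 10 or more, which reached 19.7% for LCN2 in paclitaxel 72 h.

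A thinned cell held a median of 4 of the 7 genes in paclitaxel 24 h and 2 in DMSO 24 h, and 4.5 in paclitaxel 72 h and 3 in DMSO 72 h. At least 5 of the 7 were present in 25.4% of cells in paclitaxel 24 h, 6.47% in DMSO 24 h, 50% in paclitaxel 72 h and 18.8% in DMSO 72 h. Cells with none numbered 10 in paclitaxel 24 h, 75 in DMSO 24 h, 1 in paclitaxel 72 h and 8 in DMSO 72 h. Most cells of each library therefore had at least 1 UMI of these genes.

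Within a library, the genes were only loosely tied to each other from cell to cell. Spearman's rho over thinned cells, for the 21 pairs, had a median of 0.16 in paclitaxel 24 h, 0.10 in DMSO 24 h, 0.18 in paclitaxel 72 h and 0.09 in DMSO 72 h. Points in such a correlation share a library, a depth and a composition, and at these low counts a weak rho is no finding. SAA1 with SAA2 was the highest pair on average, with rho of 0.30 in paclitaxel 24 h, 0.24 in DMSO 24 h, 0.54 in paclitaxel 72 h and 0.28 in DMSO 72 h. Sequence shared by SAA1 and SAA2 could place reads of one on the other, and its part in this rho was not tested. SAA1 with WFDC2 followed at 0.27 in paclitaxel 24 h, 0.30 in DMSO 24 h, 0.29 in paclitaxel 72 h and 0.21 in DMSO 72 h.

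The 3 WAP domain genes of chromosome 20 differed in how they paired. SLPI with WFDC2 had rho between 0.15 and 0.27, SLPI with PI3 between 0.08 and 0.19, and PI3 with WFDC2 between -0.02 and 0.08. WFDC2 with C15orf48 lay between 0.01 and 0.06, whereas LCN2 with C15orf48 lay between 0.14 and 0.28. In paclitaxel 72 h, the 10% of cells highest for SAA1 had 452 CPM of LCN2, 526 CPM of SLPI and 305 CPM of WFDC2, against 268 CPM of LCN2, 228 CPM of SLPI and 176 CPM of WFDC2 in the other cells. Cells rich in SAA1 were thus richer in these 3 genes as well. SAA2 (127 and 17.1 CPM) and C15orf48 (288 and 190 CPM) went the same way. PI3 went the other way, with 12.3 CPM in the cells highest for SAA1 and 22.7 CPM in the other cells.

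**Figure D4:**
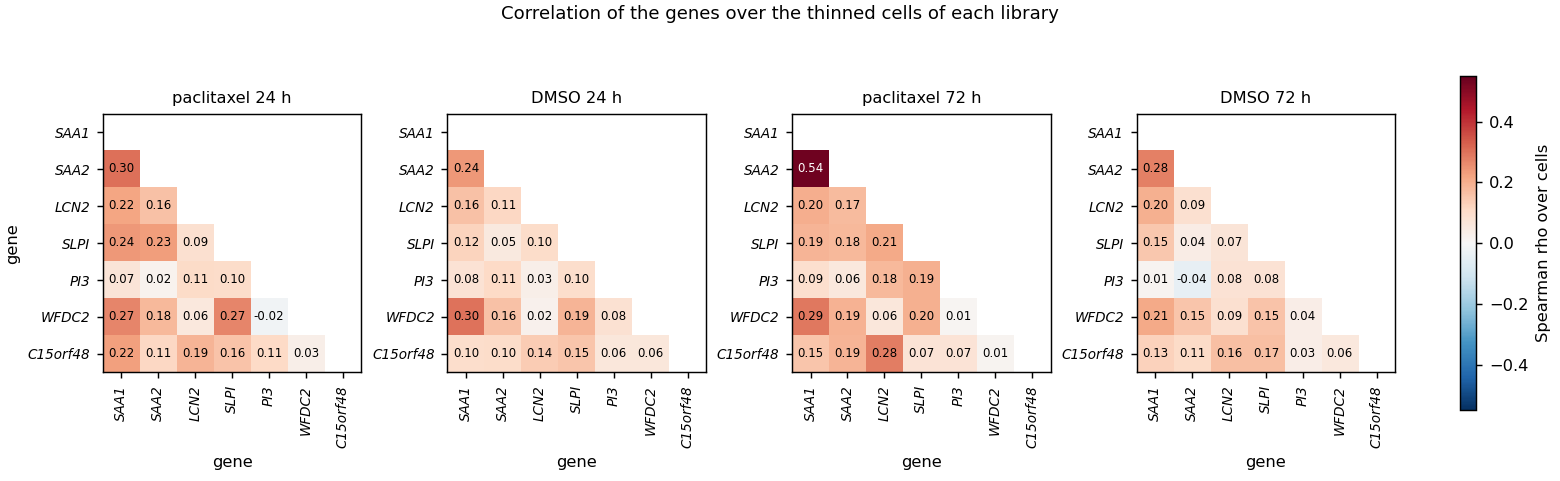
Spearman's rho of each pair of genes over the thinned cells of each library, as numbers and colours from blue (negative) to red (positive). SAA1 with SAA2 in paclitaxel 72 h, at 0.54, is the highest of all, and most pairs lie under 0.20.

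Cells were also ordered within each library by their UMIs of 16 interferon-induced genes and cut into 4 bins of equal size. In paclitaxel 24 h SAA1 had 37.8, 56.1, 88.1 and 115 CPM from the lowest to the highest bin, SLPI had 65.5, 138, 197 and 211 CPM, and WFDC2 had 49.3, 71.0, 115 and 127 CPM. All 3 were higher in each bin than in the one before it. In DMSO 24 h the corresponding range was narrower, with SLPI at 43.3, 44.3, 65.2 and 90.8 CPM. In paclitaxel 72 h SAA1 had 84.3, 171, 231 and 223 CPM, and SLPI 216, 256, 277 and 285 CPM.

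The tie between SLPI and the interferon-induced genes was therefore looser in paclitaxel 72 h than in paclitaxel 24 h, with rho over cells of 0.04 and 0.37. PI3 in paclitaxel 72 h had 38.5, 16.0, 17.2 and 14.9 CPM, highest in the lowest bin. Without the 1 cell highest for PI3, that bin had 11.9 CPM, the least of the 4. LCN2 had 143, 128, 149 and 208 CPM in paclitaxel 24 h, and its lowest 3 bins were close together. The Spearman correlation over cells with the summed UMIs of 18 NF-kB target genes did not exceed 0.174 for any of the 7 genes in any library. In bins by these NF-kB target genes, LCN2 had 221, 249, 281 and 396 CPM in paclitaxel 72 h. By interferon-induced genes it had 240, 252, 319 and 336 CPM there. C15orf48 in paclitaxel 72 h had 162, 259, 209 and 169 CPM by NF-kB target genes.

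**Figure D5:**
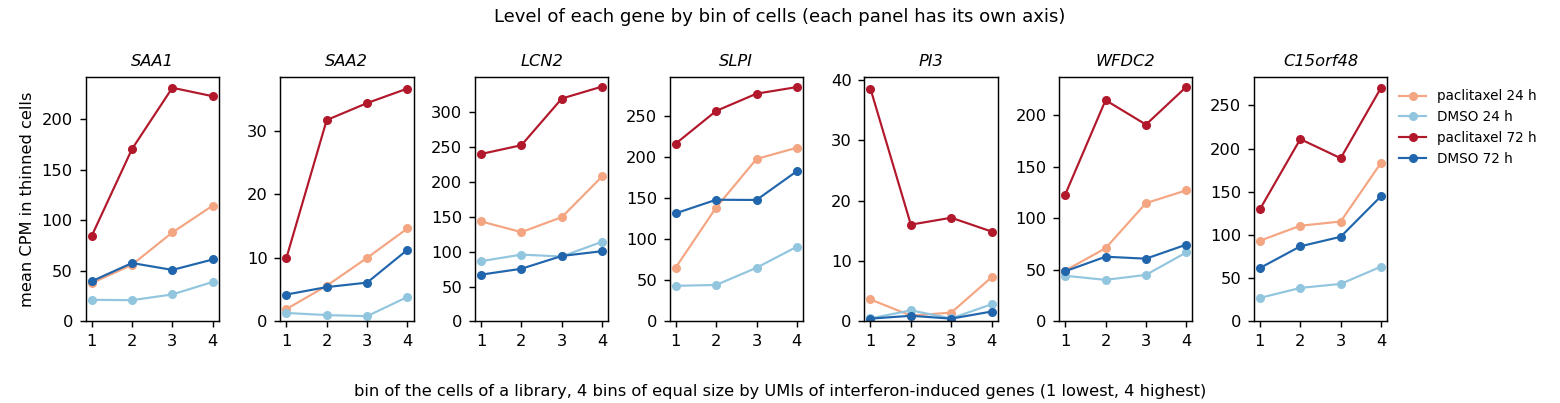
Mean level of each gene in thinned cells (CPM, a separate axis per panel) by bin of the cells of a library ranked on UMIs of interferon-induced genes, bin 1 lowest; lines join the bins of 1 library. SAA1 and SLPI climb across bins in paclitaxel 24 h, and PI3 in paclitaxel 72 h is highest in bin 1, at 38.5 CPM, or 11.9 CPM without its highest cell.

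The share of cells with no UMI of the proliferation genes MKI67 and TOP2A differed between libraries, at 27.1% in paclitaxel 24 h, 7.97% in DMSO 24 h, 49.8% in paclitaxel 72 h and 38.3% in DMSO 72 h. Within paclitaxel 72 h, C15orf48 had 242 CPM in the cells without and 159 CPM in the cells with such a UMI, SAA1 190 and 165 CPM, LCN2 296 and 278 CPM, and SLPI 273 and 243 CPM. These 4 genes were thus present in both classes. PI3, with most of its UMIs in few cells, went the other way, at 16.5 and 26.8 CPM. The share of cells with a UMI was lower in the cells without for C15orf48 (69.1% and 75.7%), SAA1 (65.7% and 72.3%) and SLPI (85.8% and 88.1%). For LCN2 the shares were 85.8% and 85.5%. In the cells without MKI67 and TOP2A UMIs alone, SAA1 (1.11), SLPI (0.83) and C15orf48 (0.94) still rose in paclitaxel at 24 h. Of all genes 6.86% rose and 4.17% fell in these cells. LCN2 (0.53) and WFDC2 (0.57) fell short of 1.5-fold there. These cells numbered 199 in paclitaxel 24 h and only 85 in DMSO 24 h. At 72 h 6 of the 7 genes rose in such cells, among 12.8% of all genes that rose and 10.5% that fell. PI3 (2.66) had a mean under 10 CPM there. In paclitaxel 72 h over paclitaxel 24 h, PI3 was at 1.01 and no longer called. In the same cells, between the DMSO libraries, SAA1 was at 0.54, no longer called, against the 85 cells of DMSO 24 h.

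Other acute phase and host defence genes were mostly too scarce to judge: of 30 listed, 2 were measured (a mean of at least 10 CPM) at 24 h and 3 at 72 h. C3, the central complement component, rose in paclitaxel at 24 h, to 59.9 CPM and by 1.72 (1.63 to 1.81). At 72 h C3 had 70.4 CPM in paclitaxel and 57.1 CPM in DMSO, a relative ratio of 0.02. S100A9, a subunit of the antimicrobial protein calprotectin, rose at both times, with 24.3 CPM in paclitaxel 24 h and 17.0 CPM in DMSO 24 h (0.65), and 66.7 CPM in paclitaxel 72 h and 30.5 CPM in DMSO 72 h (0.85). C1R, a complement protease, rose at 72 h (0.99), past the minimum through paclitaxel 72 h alone (14.2 CPM, and 5.89 CPM in DMSO 72 h). C3 thus resembled SLPI and C15orf48 in having a higher level in DMSO 72 h than in DMSO 24 h (1.80). None of 11 other WAP domain genes was measured in any comparison.

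Of the cytokine inducers, receptors and transcription factors of acute phase genes, 5 of 18 measured rose and none fell in paclitaxel at 24 h. At 72 h 4 of 22 rose and 1 fell, and the medians were 0.15 at 24 h and 0.22 at 72 h. Of those above 10 CPM in both libraries, 4 of 17 rose at 24 h and 3 of 20 at 72 h. TNF, an NF-kB activating cytokine, had 26.1 CPM in paclitaxel 24 h and 15.1 CPM in DMSO 24 h (0.93), and 55.3 CPM in paclitaxel 72 h and 17.9 CPM in DMSO 72 h (1.35). LIF, a cytokine of the interleukin 6 family, rose at both times (1.27 and 0.89). At 24 h LIF passed the minimum through paclitaxel alone, with 9.97 CPM in DMSO 24 h. CEBPD (0.87) and CEBPB (0.78), transcription factors of acute phase genes, rose at 24 h, and the NF-kB subunits NFKB2 (1.07) and RELB (0.68) rose at 72 h. Between the DMSO libraries 7 of 19 rose, with SOCS3, a feedback inhibitor of STAT3 signalling, at 1.24 and the epithelial factors EHF and ELF3 at 1.12 and 1.09. SOCS3 had 7.04 CPM in DMSO 24 h and passed through DMSO 72 h alone. Of those above 10 CPM in both DMSO libraries, 5 of 17 rose. Between the paclitaxel libraries 8 of 22 rose, TNF (0.95) and SOCS3 (0.89) among them.

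Of the measured NF-kB target and feedback genes, 7 of 13 rose in paclitaxel at 24 h (median 0.69) and 10 of 14 at 72 h (median 1.00), and none fell; at 72 h 4 of the 14 passed the minimum through 1 library alone. The neutrophil chemokine CXCL8 was at 1.52 at 24 h and 3.71 at 72 h, CXCL1 at 0.80 and 2.21, and SOD2, the mitochondrial superoxide dismutase, at 1.03 and 1.42. With time in DMSO, 4 of 10 rose and 2 fell; CXCL8 had 15.9 CPM in DMSO 72 h and 32.2 CPM in DMSO 24 h. CXCL8 was thus lower in DMSO 72 h, and TNFAIP2 of the same list was higher, with 30.4 CPM there and 12.1 CPM in DMSO 24 h. The part of these genes in the levels of the 7 was not tested. In paclitaxel with time, 10 of 16 rose, and 9 of the 14 above 10 CPM in both libraries did.

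All measured interferon-induced genes rose in the 4 comparisons, but some passed the minimum only through the library in which they were high and so had to differ. Of those above 10 CPM in both libraries, 6 of 6 rose in paclitaxel over DMSO at 24 h, 7 of 7 at 72 h, 6 of 6 between the DMSO libraries and 8 of 8 between the paclitaxel libraries. Those that passed through 1 library numbered 1, 8, 1 and 7 in the same order. Of 15 cell cycle genes none rose, and 1, 5, 8 and 12 fell in the same 4 comparisons. Of the known targets and partners of the 7 proteins, 8 of 19 were measured, and PLSCR1, a scramblase that binds SLPI, was the one that rose in each comparison (0.85, 0.74, 0.88 and 0.77). MMP9, which forms a complex with lipocalin 2, stayed under 10 CPM, with 6.43 CPM in paclitaxel 24 h, 8.30 in DMSO 24 h, 7.80 in paclitaxel 72 h and 8.82 in DMSO 72 h.

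Genes closest to each of the 7 over the 4 libraries were ranked by the root mean square distance of log2 CPM centred on its mean, among 8104 genes. With only 4 points, many genes are close by this measure, and the ranking is a description. SAA1 was closest to UBE2L6 (0.13), SP100 (0.13) and PRSS22 (0.15), and SAA2 to PARP14 (0.28), LEMD1 (0.30) and IFIH1 (0.34). LCN2 was closest to PHLDB2 (0.037) and HERPUD1 (0.066), and WFDC2 to NUPR1 (0.046), ISG20 (0.065) and B2M (0.067). SLPI was closest to BBC3 (0.034), GRB7 (0.060) and TNFAIP2 (0.086), and C15orf48 to ARID5A (0.073), HSD17B14 (0.11) and RNASE1 (0.12). PI3 had no neighbour as close, with IFI27 at 0.23, LINC01405 at 0.44 and IFI6 at 0.54.

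Over cells within libraries, a different set of genes came closest by mean rho. LCN2 had the highest value, 0.33 with the keratin KRT7, which lay between 0.30 and 0.37 in the 4 libraries, then C9orf16 (0.28) and CSTB (0.24). C15orf48 was likewise closest to keratins, KRT81 (0.27), KRT18 (0.26) and KRT7 (0.25). SAA1 was closest to RARRES1 (0.24), HLA-B (0.22) and C3 (0.21), and WFDC2 to HLA-B (0.29), S100A14 (0.22) and KLK5 (0.22). SLPI was closest to FXYD3 (0.23), C3 (0.22) and TM4SF1 (0.22), SAA2 to IFITM3, PDZK1IP1 and HLA-B (each 0.15), and PI3 to ATP6V0E1 (0.10), KRT18 (0.09) and S100P (0.09).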

How the data were processed

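Per the labels, HCC1143 cells were profiled on the 10x Chromium platform. The authors deposited raw UMI counts of each gene in each cell, not normalized. The submitters' processing notes name Cell Ranger 2.0 and GRCh38, and the selection of cells was not given in the sources used here. Each gene in a deposited table had UMIs in 1% or more of its cells, so a gene missing from a table is not a measured 0.

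Cells with at least 500 detected genes and under 20% mitochondrial UMIs were kept (3180 of 3194 barcodes). Library sums ranged from 34850724 to 72024235 UMIs. The limit that a count of 0 allows (3 counts) was 0.0417 to 0.0861 CPM. CPM carry exact Poisson, ratios exact Clopper-Pearson and shares exact binomial 95% intervals; intervals of the change of a ratio between times use the delta method. Replicates are absent, so no p-value was computed. Doublets were not removed; Scrublet called 6 in paclitaxel 24 h, 6 in DMSO 24 h, 12 in paclitaxel 72 h and 9 in DMSO 72 h, and an alternative leaves them out. The ratio step was tested on simulated data. Python 3.11.15, scipy 1.17.1, scanpy 1.11.5 and edgeR 4.0.16 (TMM factors as an alternative) were used.

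The 7 genes and the gene lists were chosen with earlier results of these data known. Named are the 7 genes, up to 4 genes of each list with the largest absolute relative ratio in a comparison, and the 3 genes nearest to each of the 7 by library pattern and by cells; 1 gene that this rule names is not reported here. NDUFA4 outside the DMSO comparison and MMP9 were named after their values were seen.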

Additional observations from a re-analysis of the deposited data

How the results depend on the processing

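Of 45 alternatives to the counts of genes that rose, 42 stayed within 1.5 times of the reported count. With a 2-fold limit 3 genes rose in paclitaxel at 24 h in place of 5, among 1.46% of all genes that rose. In cells without MKI67 and TOP2A UMIs 3 also did, among 6.86% of all genes that rose. With a minimum of 50 CPM, 4 rose at 72 h in place of 7, among 10.3% of all genes that rose. SAA2 and PI3 were no longer tested, and SLPI was at 0.56. Between the DMSO libraries that minimum kept the count at 3, among 16.2% of all genes that rose, but not the members. WFDC2 then rose (0.65) and SAA1 was no longer tested. None of the 7 fell in any alternative. With DMSO 24 h in place of DMSO 72 h as the control, all 7 rose in paclitaxel 72 h. Of all genes 15.5% rose and 12.3% fell in that setting. SAA2 (1.80 CPM in DMSO 24 h) and PI3 (1.29 CPM) again passed the minimum through paclitaxel 72 h alone, so they had to differ. WFDC2 between the DMSO libraries reached 0.74 in means per cell without the 5% of cells highest for it, and SLPI between the paclitaxel libraries then had 0.57, which ends that call; the cause was not tested. Single ratios had 316 alternatives, and none of the called ones changed sign. Ratios short of a call changed sign in 3, all in DMSO 72 h over DMSO 24 h: LCN2 was at -0.24 without subtraction of the median and at -0.09 with TMM factors, and PI3 at -0.66 in cells without MKI67 and TOP2A UMIs; the cause was not tested. Removal of the 5 cells, or of the 1 cell, highest for PI3 was chosen after seeing the data. Unthinned, the median rho of the 21 pairs was 0.200 in paclitaxel 24 h, 0.158 in DMSO 24 h, 0.226 in paclitaxel 72 h and 0.166 in DMSO 72 h. No paired analysis was possible because each group is 1 library, and for the same reason no library could be left out.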
